A study of Mus musculus with 8 samples.

Results

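The microRNAs described here are miR-33, miR-103, miR-107, miR-128, miR-185 and miR-26a, a set known for its part in lipid handling. They were measured in Kupffer cells, the macrophages that reside in the liver, from mice fed a high-fat diet. Members were the entries of the deposited small RNA table whose name was mmu-miR-33, mmu-miR-103, mmu-miR-107, mmu-miR-128, mmu-miR-185 or mmu-miR-26a or began with one of these stems, whatever the arm, locus number or suffix. This gave 11 of 1234 entries, of which 565 carried mouse names, and the suffixes that the table adds to names are left out here. The entries were miR-33-5p and miR-33-3p, miR-103-3p and miR-103-2-5p, miR-107-3p, miR-128-3p and miR-128-1-5p, miR-185-5p and miR-185-3p, and miR-26a-5p and miR-26a-2-3p.

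The tested animals were Trem2 KO mice (Trem2–/–; animals 40, 46, 88 and 90), which lack a lipid-binding surface receptor of macrophages. WT littermates (animals 35, 37, 80 and 82) were the controls. All 8 mice were male and 8 weeks old when high-fat feeding began, and it lasted 8 weeks, so no library shows the level on another diet. The labels do not describe the Trem2 allele, and a small RNA table holds no Trem2 transcript with which to check the genotype. Kupffer cells were isolated by flow cytometric sorting, and 1 µg of total RNA went into each library. Whether a library stood for 1 mouse or for pooled cells is not stated beyond its animal number, so p-values measure the spread between these libraries.

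Total counts per library ran from 2129942 to 6465609 in Trem2 KO and from 2573618 to 9443992 in WT, and 3 counts equalled 0.318 to 1.41 CPM (counts divided by the library's total and multiplied by 1e+06). The animal numbers fall into a high range (80 to 90) and a low range (35 to 46), each with 2 Trem2 KO and 2 WT mice. The labels do not say what the ranges stand for, but the libraries stood apart by them: 203 of 627 tested entries (32.4%) differed between animals 80 to 90 and animals 35 to 46 at an adjusted p under 0.05. Genotype differences are therefore given also within the ranges. Summed miRNAs known from myeloid cells took 112000 to 142500 CPM in Trem2 KO and 90640 to 167800 CPM in WT. That list marks myeloid cells in general and not Kupffer cells alone.

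A microRNA guides Argonaute to messenger RNAs that pair with its seed, bases 2 to 8 from its 5′ end, and so lowers their translation and stability. Cholesterol leaves a macrophage through the transporter ABCA1, which is a known target of miR-33, miR-128 and the miR-26 family. The gene of miR-33 lies inside that of SREBP2, the transcription factor that switches on cholesterol synthesis and uptake. miR-185 is known to act on SREBP2 and on receptors for lipoproteins, and miR-128 also on the LDL receptor. miR-103 and miR-107 are known in mouse liver and fat for lowering insulin sensitivity through caveolin-1, and their genes lie inside genes of pantothenate kinases, the enzymes that start coenzyme A synthesis.

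The mature sequences below show which members share a seed with each other or with a relative measured in the same table. They are RefSeq sequences on build GRCm38.p6, written 5′ to 3′ with the seed in capitals, and 10 of 11 member names matched an entry there.
miR-33-5p: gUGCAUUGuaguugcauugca
miR-33-3p: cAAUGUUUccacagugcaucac
miR-128-3p: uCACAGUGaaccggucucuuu
miR-27a-3p: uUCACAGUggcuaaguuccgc
miR-26a-5p: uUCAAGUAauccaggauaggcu
miR-26b-5p: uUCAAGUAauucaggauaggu
miR-103-3p: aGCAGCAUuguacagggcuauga
miR-107-3p: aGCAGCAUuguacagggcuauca
miR-16-5p: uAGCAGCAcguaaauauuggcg
The arms of miR-33 have different seeds, and no other mouse-named entry had either. miR-26a-5p shares its seed with miR-26b-5p and differs from it over their common length by C11U and C21U (miR-26a base, position from the 5′ end, miR-26b base). miR-103-3p and miR-107-3p share a seed and differ by G22C (miR-103 base first). The seed letters of miR-128-3p recur shifted by 1 base in miR-27a-3p, and those of miR-16-5p overlap the start of miR-103-3p in the same way.

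These likenesses limit what an entry can be credited with. The deposited miR-107-3p entry had the sequence agcagcattgtacagggctat, which at 21 bases ends before the base that tells miR-107-3p from miR-103-3p and begins both, so its letters do not assign its reads to miR-107. Counts of miR-103-3p, miR-107-3p, miR-128-3p and miR-26a-5p included values that were not whole, as if reads had been divided among entries. Entries under names of other species that carried a member's sequence held few reads: the one matching miR-103-3p summed to 1361 counts (1.15% of the miR-103-3p counts) and the one matching miR-26a-5p to 2906 counts (0.451%).

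By the annotation of GRCm38, most precursors lay in introns on the strand of their host gene. Mir33 was at chr15:82198122-82198190 (+) in an intron of Srebf2, which encodes SREBP2. Mir103-1 was at chr11:35782396-35782481 (+) in Pank3, Mir103-2 at chr2:131288052-131288137 (+) in Pank2 and Mir107 at chr19:34820687-34820773 (-) in Pank1, all in introns of pantothenate kinase genes. Mir128-1 was at chr1:128202361-128202430 (+) in an intron of R3hdm1 and Mir128-2 at chr9:112118636-112118711 (-) in an intron of Arpp21. Mir185 was at chr16:18327401-18327465 (-) in an intron of Tango2. Mir26a-1 was at chr9:119031796-119031885 (+) in an intron of Ctdspl, and Mir26a-2 at chr10:126995530-126995613 (+) overlapped an exon of Ctdsp2, both genes of small phosphatases. miR-26a-5p, miR-103-3p and miR-128-3p can each come from 2 of these loci, and a count of the mature form does not tell them apart.

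The 11 entries together took 1.41%, 1.495%, 2.82% and 3.05% of all counts in Trem2 KO libraries 40, 46, 88 and 90, against 1.81%, 1.12%, 3.14% and 2.88% in WT libraries 35, 37, 80 and 82. The share was higher in the high-numbered animals of both genotypes. Levels are given below as CPM with TMM library scaling. Ordered by mean level, the entries ran from miR-26a-5p through miR-103-3p, miR-185-5p, miR-107-3p, miR-128-3p, miR-26a-2-3p, miR-33-5p, miR-185-3p, miR-103-2-5p and miR-128-1-5p to miR-33-3p. The first 3 steps of this order held in 8 of 8 libraries, whereas miR-33-5p stood above miR-185-3p in 4 of 8, miR-185-3p above miR-103-2-5p in 5 and miR-128-1-5p above miR-33-3p in 3, so these scarce neighbours had no firm order. Recovery of a small RNA in a library depends also on its ligation, so the order is one of reads and not of molecules.

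miR-26a-5p, a regulator of ABCA1, led the set and ranked 13 among the mouse-named entries. It had 10647, 9535, 19673 and 25142 CPM in Trem2 KO libraries 40, 46, 88 and 90, against 12866, 7953, 28354 and 17729.9 CPM in WT libraries 35, 37, 80 and 82. The genotypes overlapped, and the 4 high-numbered animals lay above the 4 low-numbered ones. miR-33-5p, the other member best known for ABCA1, was a rare species of rank 329. It had 13.9, 19.0, 5.14 and 0.955 CPM in the Trem2 KO libraries, from 46, 42, 16 and 6 counts, against 13.4, 18.7, 1.85 and 0 CPM in WT, from 35, 46, 15 and 0 counts. Every low-numbered animal lay above every high-numbered one for miR-33-5p in both genotypes. It passed the filter mainly through the low-numbered animals, so no contrast with miR-26a-5p is drawn from this order.

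miR-128-3p, which acts on ABCA1 and the LDL receptor, ranked 146. It had 112, 78.4, 201 and 196 CPM in Trem2 KO libraries 40, 46, 88 and 90, against 90.2, 101, 307 and 731 CPM in WT libraries 35, 37, 80 and 82. WT library 82 was the highest of the 8 by more than the whole range of the Trem2 KO libraries. miR-185-5p, the member tied to SREBP2 and lipoprotein uptake, ranked 70. It had 1857, 1888, 789 and 1081 CPM in Trem2 KO against 1709, 2014, 1323 and 808 CPM in WT, with the high-numbered animals again below the low-numbered ones.

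Of the insulin-linked pair, miR-103-3p had rank 45 and miR-107-3p rank 93. miR-103-3p had 2849.6, 2297, 2369 and 4041 CPM in Trem2 KO libraries 40, 46, 88 and 90, against 2580.3, 2263, 5441 and 3095 CPM in WT libraries 35, 37, 80 and 82. miR-107-3p had 642, 543, 605 and 907 CPM in Trem2 KO against 513, 564, 1057 and 663 CPM in WT. WT library 80 was the highest for both entries, and Trem2 KO library 90 came next for both.

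The passenger arms were scarce. miR-26a-2-3p had 14.8, 14.0, 11.9 and 5.25 CPM in the Trem2 KO libraries in the same order, against 13.8, 19.1, 9.73 and 7.87 CPM in WT. miR-185-3p had 6.93, 10.8, 6.75 and 6.69 CPM in Trem2 KO against 4.97, 7.74, 2.46 and 1.45 CPM in WT. The values of miR-185-3p were higher in Trem2 KO, but WT library 37 exceeded 3 of the 4 Trem2 KO libraries. miR-103-2-5p had 4.52, 4.07, 8.36 and 3.82 CPM in Trem2 KO against 3.06, 4.89, 6.03 and 6.83 CPM in WT, with no separation of either kind.

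**Figure D1:**
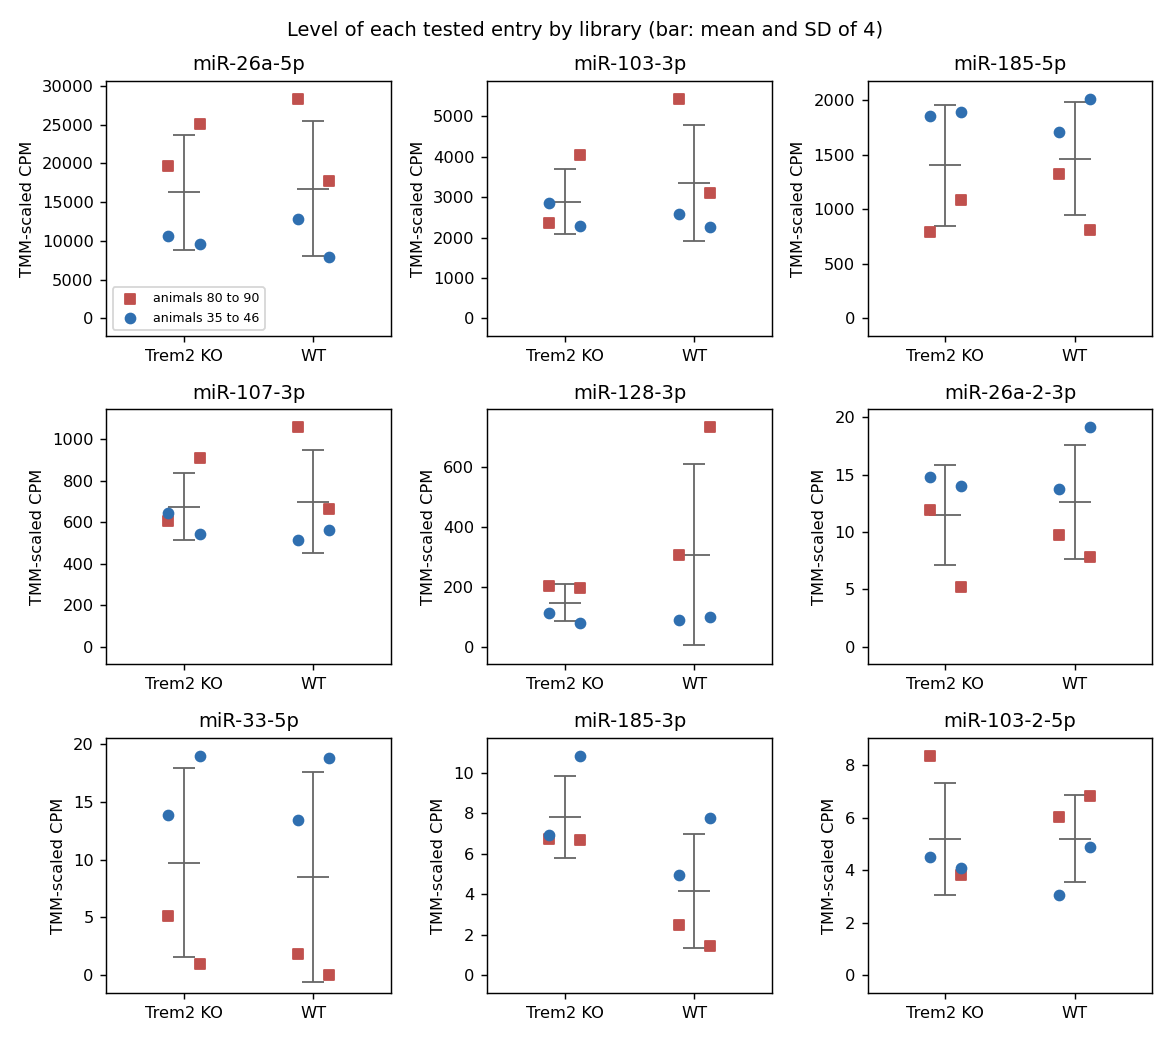
Level of the 9 entries that passed the filter in each of the 8 libraries, in TMM-scaled CPM on linear axes, Trem2 KO left of WT. Red squares are animals 80 to 90, blue circles animals 35 to 46, and the bar is the mean and SD of 4 libraries. The genotypes overlap in each panel, while squares lie above circles for miR-26a-5p and miR-128-3p and below them for miR-185-5p, miR-26a-2-3p and miR-33-5p.

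The genotype comparison asks whether these miRNAs have other levels in Kupffer cells that lack Trem2. No member passed the test. Of the 11 entries, 9 passed the filter on low counts, and 0 of the 9 had an adjusted p under 0.05 in the edgeR quasi-likelihood test, where 0 of all 627 entries did (0%). At an unadjusted p under 0.05 the test counted 2 entries among the 627, and DESeq2 called 0 entries, with 6 at an unadjusted p under 0.05. The adjusted p was 0.997 for each of the 9 members. Their differences (Trem2 KO minus WT, log2) were positive for 2 and negative for 7, with a median of -0.05, beside -0.04 over all 627 entries. In no member did the 4 libraries of a genotype lie wholly to one side of the 4 of the other, which they did in 5 of 627 entries (0.797%).

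For the abundant members the intervals were narrowest. miR-26a-5p averaged 16249.7 ± 7467 CPM in Trem2 KO and 16726 ± 8719 CPM in WT (SD, n = 4 each). Its log2 difference was -0.04 ± 0.45 (SE), with a 95% interval of -1.05 to 0.97. miR-103-3p averaged 2889 ± 806 CPM in Trem2 KO and 3345 ± 1439 CPM in WT, and its interval ran from -1.001 to 0.58. miR-107-3p averaged 675 ± 161 CPM in Trem2 KO and 699 ± 247 CPM in WT, and its interval ran from -0.80 to 0.69. These intervals reach about 1 log2 unit at most to either side, so larger differences of these members lay outside them. miR-185-5p averaged 1404 ± 555 CPM in Trem2 KO and 1463 ± 520.4 CPM in WT, with an interval of -0.94 to 0.82.

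The other members had wider intervals. miR-33-5p had a log2 difference of 0.20 ± 1.34 with a 95% interval of -2.78 to 3.19, from 9.73 ± 8.18 CPM in Trem2 KO and 8.49 ± 9.04 CPM in WT. miR-128-3p had the lowest difference, -1.06 ± 0.68 with an interval of -2.58 to 0.45, from 147 ± 61.3 CPM in Trem2 KO and 307 ± 299.8 CPM in WT. Without WT library 82 the difference of miR-128-3p was -0.18, so that library carried most of it. miR-185-3p had the highest difference, 0.92 ± 0.75 with an interval of -0.76 to 2.60, from 7.80 ± 2.03 CPM in Trem2 KO and 4.15 ± 2.81 CPM in WT.

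Within each number range, with 2 libraries of each genotype, 0 entries were called. Among animals 80 to 90, miR-128-3p had a Trem2 KO minus WT difference of -1.36 ± 0.50 (edgeR, adjusted p = 0.947), and among animals 35 to 46 it had 0.06 ± 0.33 (adjusted p = 0.988). For miR-185-3p it was 1.79 ± 1.03 among animals 80 to 90 and 0.53 ± 0.71 among animals 35 to 46. The rest of the 9 members tested over all 8 libraries had differences of -0.40 to -0.0019 among animals 80 to 90. There miR-33-5p did not pass the filter. Among animals 35 to 46 their differences were -0.13 to 0.20, and neither range had a called member. In animals 80 to 90 alone 10 member entries were tested, 1 higher and 9 lower in Trem2 KO, with a median of -0.17 beside -0.06 over all 755 entries. These 10 included miR-33-3p and miR-128-1-5p, whose differences are not given. In animals 35 to 46 alone 9 were tested, 8 higher and 1 lower, with a median of 0.08 beside 0.03 over all 576 entries. The members thus had no shared direction in the 2 ranges. The difference between the ranges in miR-128-3p, estimated in 1 fit of all 8 libraries, was -1.38 ± 0.61 with an adjusted p of 0.930 for the interaction of genotype and range, so the ranges were not shown to differ. Over all entries 0 of 627 passed in the interaction (0%), with 30 at an unadjusted p under 0.05. With the range as a term beside genotype, 0 members passed and 0 of 627 entries did (0%), with 17 at an unadjusted p under 0.05. That fit gave -0.70 ± 0.37 for miR-128-3p and 1.12 ± 0.66 for miR-185-3p.

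**Figure D2:**
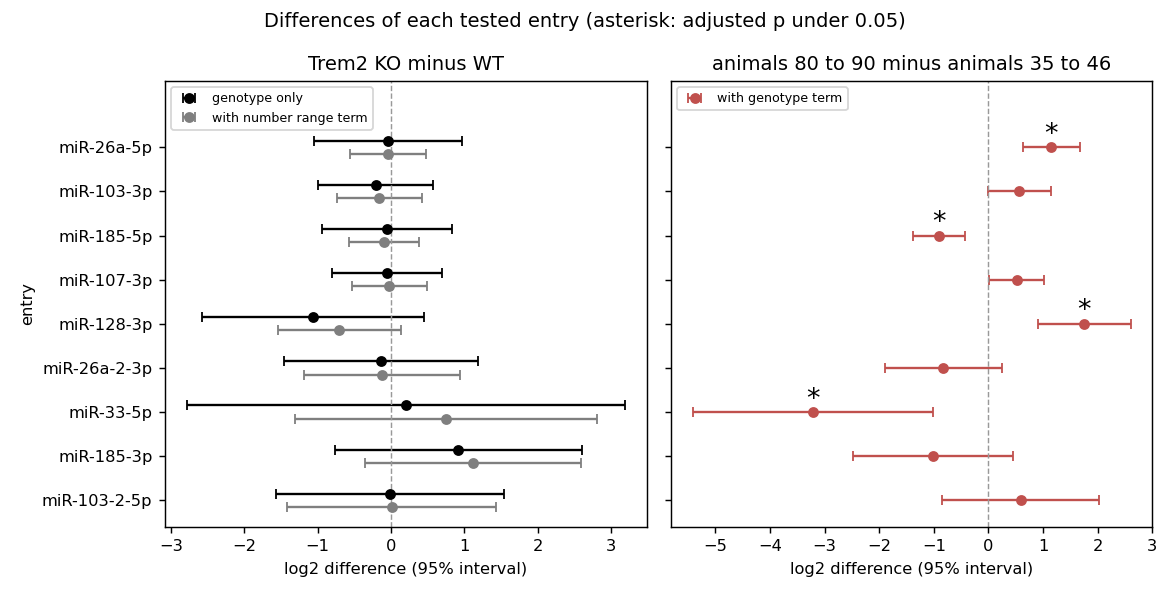
Log2 difference of the 9 tested entries with its 95% interval. The left panel shows Trem2 KO minus WT, in black with genotype as the only term and in grey with the number range as a further term; the right panel shows animals 80 to 90 minus animals 35 to 46. Each interval on the left spans 0, and asterisks on the right mark the 4 entries with an adjusted p under 0.05.

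Ratios within a library do not depend on how libraries are scaled, and 5 were compared between genotypes with exact two-sided permutation tests over the 70 assignments of libraries, whose smallest p is 0.0286. The guide-to-passenger ratio of miR-185 (miR-185-5p over miR-185-3p, log2) was 8.04, 7.41, 6.84 and 7.32 in Trem2 KO libraries 40, 46, 88 and 90, against 8.37, 7.99, 9.03 and 9.02 in WT libraries 35, 37, 80 and 82. The groups overlapped by 1 library, Trem2 KO 40, which lay just above WT 37. The means were 7.40 ± 0.49 in Trem2 KO and 8.60 ± 0.52 in WT, a difference of -1.20 (exact p = 0.0571, adjusted p = 0.286 over the 5 ratios). Within the ranges the difference was -1.95 among animals 80 to 90 and -0.45 among animals 35 to 46, with 2 libraries of each genotype and no test. The ratio rests on 7 to 42 counts of miR-185-3p per library.

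The remaining ratios lay closer together. miR-103-3p over miR-107-3p was 2.09 ± 0.09 in Trem2 KO and 2.23 ± 0.16 in WT on the log2 scale (exact p = 0.2, adjusted p = 0.5), and miR-103-3p held 79.6% to 83.7% of the counts of the pair in the 8 libraries. miR-26a-5p over miR-26b-5p was 0.33 ± 0.32 in Trem2 KO and 0.39 ± 0.06 in WT (exact p = 0.8286, adjusted p = 0.914), with miR-26a-5p holding 50.3% to 62.2% of the counts of that pair. The miR-26a-5p share of its pair thus varied over a wider band than the miR-103-3p share of its own. The miR-107-3p entry holds only the shared start of both sequences, so the narrower band need not be that of 2 separate miRNAs. Within the ranges, Trem2 KO minus WT was -0.30 for miR-26a-5p over miR-26b-5p among animals 80 to 90 and 0.18 among animals 35 to 46, so its direction differed between them. For miR-103-3p over miR-107-3p it was -0.23 and -0.05 in the same 2 ranges, -0.23 and -0.06 for miR-103-3p over miR-103-2-5p, and 0.13 and 0.17 for miR-26a-5p over miR-26a-2-3p. miR-26a-5p over miR-26a-2-3p was 10.44 ± 1.32 in Trem2 KO and 10.29 ± 1.28 in WT (exact p = 0.914, adjusted p = 0.914). miR-103-3p over miR-103-2-5p was 9.11 ± 0.78 in Trem2 KO and 9.26 ± 0.53 in WT (exact p = 0.743, adjusted p = 0.914).

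**Figure D3:**
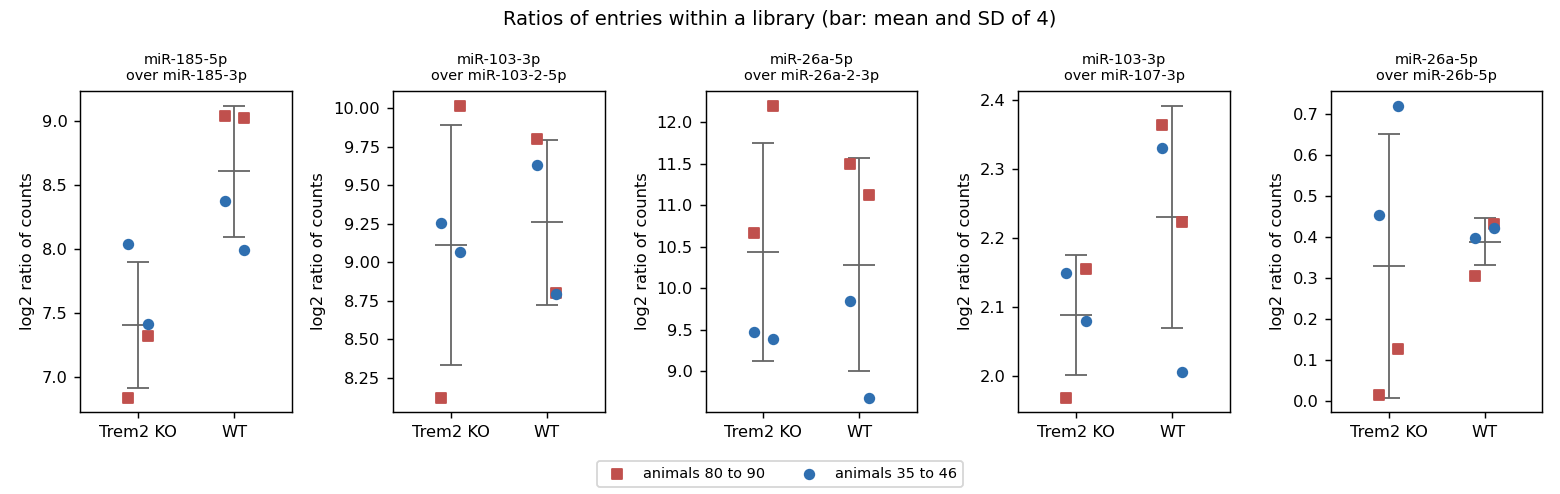
Log2 ratio of the counts of 2 entries within a library, for the 5 ratios compared, Trem2 KO left of WT, with the mean and SD of 4 libraries. Red squares are animals 80 to 90 and blue circles animals 35 to 46. For miR-185-5p over miR-185-3p the Trem2 KO libraries lie between 6.84 and 8.04 and the WT libraries between 7.99 and 9.03.

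The second comparison set the animals numbered 80 to 90 against those numbered 35 to 46, with genotype in the model and 2 Trem2 KO and 2 WT libraries on each side. In it miR-26a-5p and miR-128-3p were higher, and miR-185-5p and miR-33-5p lower, in animals 80 to 90. These were 4 of the 9 tested members, beside 32.4% of all 627 entries (16.6% higher and 15.8% lower), so the members' share was near that of the table. miR-33-5p passed the filter mainly through animals 35 to 46, where it is high, so its call had to lean that way and the count is read without it: 3 of 8. In 5 of the 9 members the libraries of the 2 ranges did not overlap, beside 41.1% of all entries. miR-33-5p was among these and is set aside for the same reason. That leaves miR-26a-5p, miR-128-3p, miR-185-5p and miR-26a-2-3p. In sorted cells measured in bulk, more cells of a type and more RNA per cell cannot be told apart.

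miR-26a-5p averaged 22725 ± 4892 CPM in animals 80 to 90 and 10250.4 ± 2065 CPM in animals 35 to 46, a log2 difference of 1.15 ± 0.23 (SE; edgeR, adjusted p = 0.00503). miR-128-3p averaged 359 ± 254 CPM in animals 80 to 90 and 95.4 ± 14.5 CPM in animals 35 to 46, a difference of 1.75 ± 0.38 (adjusted p = 0.00691). Both of these regulators of ABCA1 stayed past the threshold whichever library was left out. miR-185-5p averaged 1000.1 ± 253 CPM in animals 80 to 90 and 1867 ± 125 CPM in animals 35 to 46, a difference of -0.90 ± 0.21 (adjusted p = 0.0108). Its adjusted p was 0.0586 without Trem2 KO library 40 and 0.0754 without WT library 37.

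miR-33-5p averaged 1.99 ± 2.24 CPM in animals 80 to 90 and 16.2 ± 3.03 CPM in animals 35 to 46, a difference of -3.22 ± 0.98 (adjusted p = 0.0305). It fails the filter in animals 80 to 90 alone, so this call describes the libraries that chose it and supports no contrast with the other regulators of ABCA1. The adjusted p rose above 0.05 when a single library was left out: it was 0.0659 without Trem2 KO 40, 0.0886 without Trem2 KO 46, 0.0828 without Trem2 KO 90, 0.0600 without WT 35 and 0.0937 without WT 37. The difference itself stayed negative, between -4.02 without Trem2 KO 88 and -2.71 without WT 82.

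The other 5 tested members did not pass. miR-103-3p had a difference of 0.57 ± 0.26 (adjusted p = 0.114), from 3736 ± 1327 CPM in animals 80 to 90 and 2498 ± 274 CPM in animals 35 to 46. miR-107-3p had 0.51 ± 0.23 (adjusted p = 0.107), from 808 ± 211 CPM in animals 80 to 90 and 566 ± 55.3 CPM in animals 35 to 46. These 2 entries thus had differences of like size, but the letters of the miR-107-3p entry do not assign its reads to miR-107. The miR-107-3p entry passed with DESeq2 (adjusted p = 0.0429). Both passed when libraries were scaled by their totals without TMM, an alternative added after the data were seen (adjusted p = 0.0257 for miR-103-3p and 0.0190 for miR-107-3p). Passenger arms had -0.83 ± 0.48 for miR-26a-2-3p (adjusted p = 0.199), -1.02 ± 0.65 for miR-185-3p (0.248) and 0.59 ± 0.64 for miR-103-2-5p (0.516).

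The arms of a stem did not always lie the same way. The log2 ratio of miR-26a-5p over miR-26a-2-3p was 11.37 ± 0.65 in animals 80 to 90 and 9.35 ± 0.49 in animals 35 to 46, with no overlap (10.67 to 12.20 against 8.68 to 9.85). This ratio was picked for description after its values were seen, and no test was made of it between the ranges. miR-26a-5p has 2 source loci and miR-26a-2-3p has 1, so the ratio mixes loci with arms.

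For miR-33 and miR-128 the less used arms failed the filter over all libraries and are described here without a test. miR-33-3p had 6, 0, 13 and 19 counts in Trem2 KO libraries 40, 46, 88 and 90, against 0, 0, 12 and 33 counts in WT libraries 35, 37, 80 and 82. Summed over 4 libraries, miR-33-5p had 37 counts in animals 80 to 90 and 169 in animals 35 to 46, whereas miR-33-3p had 77 in animals 80 to 90 and 6 in animals 35 to 46. The arms of this Srebf2 intron miRNA therefore lay in opposite order in these sums, which are not scaled for depth. Libraries of animals 80 to 90 were deeper (2607271 to 9443992 counts, against 2129942 to 3809016 in animals 35 to 46). As TMM-scaled CPM, miR-33-3p averaged 3.88 ± 2.26 in animals 80 to 90 and 0.452 ± 0.904 in animals 35 to 46. Of the counts of both arms, miR-33-5p made up 55.2% and 24.0% in Trem2 KO libraries 88 and 90, against 55.6% and 0% in WT libraries 80 and 82. The Wilson 95% intervals were 37.5% to 71.6% and 11.5% to 43.4% in those Trem2 KO libraries, against 37.3% to 72.4% and 0% to 10.4% in those WT libraries, and cover counting error only. In the low-numbered animals it made up 88.5% and 100% in Trem2 KO libraries 40 and 46, against 100% and 100% in WT libraries 35 and 37. This share was picked after its values were seen, and no test was made of it.

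miR-128-1-5p had 5, 0, 0 and 25 counts in Trem2 KO libraries 40, 46, 88 and 90, against 0, 6, 75 and 15 counts in WT libraries 35, 37, 80 and 82. It averaged 4.08 ± 3.84 CPM in animals 80 to 90 and 0.987 ± 1.20 CPM in animals 35 to 46, with overlap, since Trem2 KO library 88 had 0 counts. WT library 80 alone held 75 of its 115 counts in animals 80 to 90. Small values call for caution: the whole table held 124 values of 1 to 4 counts but 962 of 5 to 8. A listed 0 may thus stand for a few reads, and no fold change was formed from these entries.

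**Figure D4:**
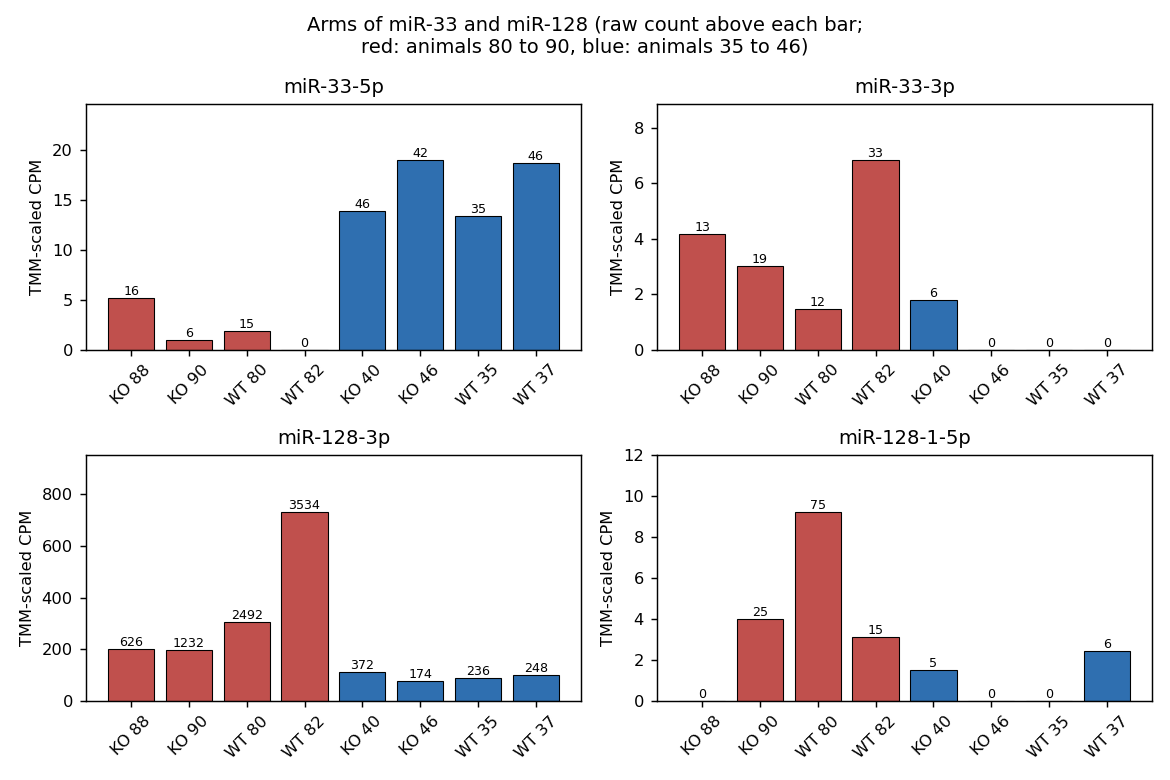
Level of both arms of miR-33 and of miR-128 in each library, in TMM-scaled CPM on linear axes with bars from 0, and the raw count, rounded to a whole number, above each bar. Red bars are animals 80 to 90 and blue bars animals 35 to 46, with Trem2 KO left of WT in each. miR-33-5p has 0 to 16 counts in the high-numbered animals and 35 to 46 in the low-numbered ones, while miR-33-3p has 12 to 33 counts in the high-numbered animals and 0 to 6 in the low-numbered ones.

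Other miRNAs of lipid handling showed a similar picture, with no call by genotype. Of 16 tested miRNAs known to act on ABCA1 and cholesterol efflux, 8 were higher and 8 lower in Trem2 KO and 0 were called, with a median log2 difference of -0.05. The smallest unadjusted p values were those of miR-144-3p, with 297 ± 174 CPM in Trem2 KO and 156 ± 104 CPM in WT, and of miR-148a-3p, with 1510.0 ± 832 CPM in Trem2 KO and 2695 ± 3362 CPM in WT. Of 9 miRNAs acting on the LDL receptor or the HDL receptor SR-BI, 4 were higher and 5 lower, with 0 called and a median of -0.19. Of 18 acting on sterol and fatty acid synthesis or oxidation, 7 were higher and 11 lower, with 0 called and a median of -0.04. Of 9 relatives that share a seed or its letters with a member, 5 were higher and 4 lower, with 0 called and a median of 0.06.

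Between the number ranges, the calls in these lists went both ways, beside 16.6% called higher and 15.8% called lower over all 627 entries. In the ABCA1 list 1 miRNA was higher and 6 were lower of 16 tested in animals 80 to 90, with a median of -0.55. The one that was higher was miR-26b-5p, which has the seed of miR-26a-5p: it averaged 19650.0 ± 4642 CPM in animals 80 to 90 and 7315 ± 1871 CPM in animals 35 to 46, a difference of 1.43 ± 0.26 (adjusted p = 0.00321). miR-34a-5p, a p53-induced miRNA, was lower at 39.7 ± 10.5 CPM against 160.0 ± 26.3 CPM in animals 35 to 46, a difference of -1.998 ± 0.28 (adjusted p = 0.000802). Thus miR-26b-5p and its seed relative miR-26a-5p were both higher. The LDL receptor and SR-BI list had 2 higher and 2 lower calls of 9 tested with a median of -0.46, and its 2 smallest p values belonged to miR-125a-5p (1.17 ± 0.18, adjusted p = 0.00138) and miR-223-3p (1.01 ± 0.22, adjusted p = 0.00637).

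In the sterol and fatty acid list, 4 were called higher and 8 lower of 18 tested in animals 80 to 90, with a median of -0.48. miR-182-5p, which is induced by SREBP2 in mouse, averaged 4.04 ± 3.34 CPM in animals 80 to 90 and 33.9 ± 8.22 CPM in animals 35 to 46, a difference of -3.38 ± 0.53 (adjusted p = 0.00145). It may have passed the filter mainly through animals 35 to 46, as miR-33-5p did, so its call supports no contrast. The same limit holds for miR-96-5p, at 0.246 ± 0.49 CPM in animals 80 to 90 and 6.78 ± 2.22 CPM in animals 35 to 46. It is among the lower calls of the ABCA1, LDL receptor and sterol lists. Among the seed relatives 4 were called higher and 2 lower of 9 tested, with a median of 0.39. The smallest p there belonged to miR-15b-5p, whose seed overlaps the start of miR-103-3p. It averaged 1937 ± 348 CPM in animals 80 to 90 and 252 ± 141 CPM in animals 35 to 46, a difference of 2.94 ± 0.40 (adjusted p = 0.000668). The lists share members with each other.

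Markers of myeloid cells and of other cell types moved with the ranges as well, and their part in the members' differences was not tested. Of 5 myeloid miRNAs, 3 were called higher and 0 lower in animals 80 to 90 (miR-142a-5p, miR-223-3p and miR-342-3p). The other 2 leaned lower without a call in edgeR. They were miR-142a-3p (-0.64 ± 0.24, adjusted p = 0.0637) and miR-146a-5p, the most abundant of the list (-0.31 ± 0.28, adjusted p = 0.4235). The median of the list was 0.79, with sums of 90640 to 167800 CPM in animals 80 to 90 and 112000 to 134900 CPM in animals 35 to 46. Hepatocyte miRNAs summed to 9149 to 14220 CPM in animals 80 to 90 and 12230 to 139500 CPM in animals 35 to 46, so these sums overlapped. Of the 7 entries 6 were lower and 1 was higher in animals 80 to 90, and only 1 was called. The call was that of miR-122-5p, their main member (-2.44 ± 0.70, adjusted p = 0.0243), at 42080 ± 50130 CPM in animals 35 to 46. Its other arm miR-122-3p was the higher one (0.19 ± 0.85, adjusted p = 0.901). Erythroid miRNAs, led by miR-451a, summed to 636.3 to 2516 CPM in animals 80 to 90 and 5060 to 7387 CPM in animals 35 to 46. Of the 4 erythroid entries 2 were called lower and 1 leaned higher, miR-144-5p (0.44 ± 0.60, adjusted p = 0.611). Stellate or mesenchymal miRNAs summed to 3082 to 3590 CPM in animals 80 to 90 and 5374 to 8052 CPM in animals 35 to 46. The erythroid and stellate sums thus did not overlap between the ranges, as was so for 41.1% of all 627 single entries. The stellate sum was mostly miR-143-3p, which was called lower with miR-145a-5p, whereas miR-214-3p was called higher, at 133 ± 51.9 CPM in animals 80 to 90 and 31.5 ± 15.4 CPM in animals 35 to 46 (2.10 ± 0.43, adjusted p = 0.00503). The endothelial sums overlapped between the ranges, at 18360 to 28790 CPM in animals 80 to 90 and 22970 to 33820 CPM in animals 35 to 46. The epithelial sums also overlapped, at 424.6 to 734.2 CPM in animals 80 to 90 and 250.8 to 452.1 CPM in animals 35 to 46. Muscle miRNAs summed to 6.895 to 259.8 CPM in animals 80 to 90 and 45.41 to 111.2 CPM in animals 35 to 46, and miR-133a-3p among them was called lower in animals 80 to 90 (-3.46 ± 0.55, adjusted p = 0.0016). It had 2.50 ± 1.11 CPM in animals 80 to 90 and 27.8 ± 9.96 CPM in animals 35 to 46, so its call carries the limit given for miR-33-5p. By genotype, hepatocyte miRNAs summed to 9149 to 41070 CPM in Trem2 KO and 9847 to 139500 CPM in WT, with 0 of 7 called. Of these entries 0 were higher and 7 lower in Trem2 KO, with a median log2 difference of -0.82. The WT libraries varied widely, with miR-122-5p at 34760 ± 53910 CPM in WT and 14140 ± 12460 CPM in Trem2 KO. The 7 entries are not independent, since the list holds miR-194-5p in more than 1 form. Endothelial miRNAs summed to 18360 to 25850 CPM in Trem2 KO and 25870 to 33820 CPM in WT, so these sums just failed to overlap, with 0 of 4 called. Of all 627 single entries 0.797% did not overlap by genotype. The sums of the other marker lists overlapped between genotypes.

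The miRNAs whose levels followed those of the leading members most closely were found among 170 abundant mouse-named entries, by the root mean square difference of log2(CPM + 1) over the 8 libraries after centring. miR-26a-5p was most like miR-223-3p, a myeloid miRNA, at 0.117 log2 units, where the median candidate lay at 0.710. miR-185-5p was most like miR-21a-5p at 0.158 (median candidate 0.734). Both miR-103-3p and miR-107-3p were most like miR-181b-5p, at 0.182 and 0.150 (median candidates 0.564 and 0.548). Reads of the miR-107-3p entry cannot be told from miR-103-3p by their letters, so these likenesses need not be separate. miR-128-3p was most like miR-532-3p at 0.405 (median 1.06) and miR-33-5p most like let-7i-3p at 0.541 (median 1.64). For miR-128-3p and miR-33-5p the nearest pattern thus lay farther off than the nearest ones of the abundant members, but so did the median candidate. The values of miR-33-5p rest on 0 to 46 counts per library. All points share the 8 libraries and their split by number range.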

How the data were processed

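Small RNA libraries from sorted Kupffer cells of 4 Trem2 KO and 4 WT mice were compared. Expected counts were taken from the deposited columns that the headers call raw, of whose values 12.0% were not whole within 1e-06. The deposited normalized columns held a signal equal to the raw value times 1 constant factor per library. Aligner, miRNA database and build: not given in the sources used here.

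Counts were rounded to whole numbers. Entries were filtered with filterByExpr (627 of 1234 kept) and tested with the quasi-likelihood test of edgeR 4.0.16 (R 4.3.3), using TMM scaling and Benjamini-Hochberg adjustment over all 627 entries at 0.05. Genotype was the only term in the first comparison, and genotype and animal number range were the terms in the second. Standard errors come from the difference and its quasi-likelihood F. Alternatives used DESeq2 1.42.0 and limma 3.58.1. The fits were tested on simulated data. Ratios used counts plus 0.5 and permutation tests in scipy 1.17.1 (Python 3.11.15). Intervals for shares (Wilson, 95%) cover counting error only. Precursor positions and host genes came from the GRCm38 annotation.

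The members and lists were chosen with earlier results of these data known. All members with a mean of at least 10 counts are given per library, and of each pathway list the 2 miRNAs with the smallest unadjusted p between the number ranges. By genotype these 2 are given for the ABCA1 list only. The nearest pattern was sought among entries with a mean of at least 100 CPM. Lists name miRNAs enriched in a pathway or cell type, not exclusive to it. Read depth was 2129942 to 9443992 counts per library.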

Additional observations from a re-analysis of the deposited data

Results flagged for a closer look

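Of 18 groups of 4 libraries, 1 held a library far from the other 3, and chance gives 0.9 such groups at 1 in 20. It was the Trem2 KO group of miR-185-3p, where library 46 had 10.84 CPM and the other Trem2 KO libraries had 6.69 to 6.93 CPM. Library 46 was the shallowest, and its value rests on 24 counts. The 4 WT libraries had 1.45 to 7.74 CPM.

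The log2 ratio of miR-26a-5p over miR-26b-5p lay in opposite order in the 2 number ranges. Among animals 80 to 90 it was 0.02 and 0.13 in Trem2 KO against 0.30 and 0.43 in WT, a difference of -0.30 (-0.2972). Among animals 35 to 46 it was 0.45 and 0.72 in Trem2 KO against 0.40 and 0.42 in WT, a difference of 0.18 (0.1779). The difference between the ranges was not tested.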

How the results depend on the processing

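No paired analysis was possible because the Trem2 KO and WT animals share no replicate numbers. The count of entries called between Trem2 KO and WT was 0 under every alternative run, for all entries and for the members. Between animals 80 to 90 and animals 35 to 46, leaving out 1 library gave 129 to 222 calls over all entries, lowest without WT 37, and 2 to 4 calls among the members, lowest without Trem2 KO 40 and without WT 37. Member calls were 5 with DESeq2, 6 without TMM and 4 in the other settings with all 8 libraries. Over all entries, other settings gave 209 calls (DESeq2 size factors), 217 (library totals without TMM), 227 (no filter), 254 (limma-trend) and 276 (DESeq2). Library totals without TMM, an alternative chosen after seeing the data, moved the median range difference of all entries to 0.16 from -0.04. For this comparison the adjusted p over all alternatives ran from 0.0257 to 0.298 for miR-103-3p, 0.0190 to 0.269 for miR-107-3p, 0.00342 to 0.0754 for miR-185-5p and 0.00242 to 0.0937 for miR-33-5p. It stayed at or below 0.0291 for miR-26a-5p and 0.0308 for miR-128-3p, and the direction held in each of the 9 members. For miR-128-3p between Trem2 KO and WT it ran from 0.582 to 0.9999.

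No genotype difference of a member was called, and several changed sign (Trem2 KO minus WT, log2), among them miR-128-3p from -1.06; the cause was not tested. miR-103-2-5p was 0.0379 with DESeq2 size factors, 0.0225 with DESeq2, 0.0254 with limma-trend, 0.00905 with the number range block and 0.0434 without TMM. miR-107-3p was 0.0248 and miR-26a-5p 0.0361 with limma-trend, and miR-26a-5p was 0.0127 without TMM. In animals 35 to 46 alone, also added after seeing the data, miR-128-3p was 0.0557, miR-103-3p 0.15, miR-103-2-5p 0.17, miR-185-5p 0.0656, miR-107-3p 0.20 and miR-26a-5p 0.0125. In animals 80 to 90 alone, miR-33-5p did not pass the filter. Leaving out 1 library gave -0.32 to 0.14 for miR-103-2-5p, -0.42 to 0.11 for miR-103-3p, -0.23 to 0.21 for miR-107-3p, -0.27 to 0.15 for miR-185-5p, -0.31 to 0.13 for miR-26a-2-3p, -0.34 to 0.32 for miR-26a-5p and -0.35 to 0.97 for miR-33-5p. Log2 ratio differences ran from -0.45 to 0.19 for miR-103-3p over miR-103-2-5p, -0.44 to 0.55 for miR-26a-5p over miR-26a-2-3p and -0.19 to 0.0450 for miR-26a-5p over miR-26b-5p. The part of depth in the wide intervals of miR-33-5p, miR-185-3p and miR-103-2-5p was not tested; the SE of miR-33-5p was 0.92 with the number range block and 1.34 without it.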
